A study of Mus musculus with 6 samples.

Results

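The genes described here are 7 close neighbours of Rb1 on mouse chromosome 14, Cysltr2, Rcbtb2, Lpar6, Itm2b, Med4, Sucla2 and Esd, out of 19938 genes named on the arrays. They were chosen by position, with earlier results of these data known, and do not include every gene of the stretch. For each, the brightest transcript cluster (the probe group that stands for a transcript) carrying that symbol alone was used. RNA was measured on 6 arrays, 1 per culture, of proliferating mouse embryonic fibroblasts (MEFs), mixed connective tissue cells cultured from whole embryos. By their labels, 3 cultures were Rb1+/+ and 3 were Rb1L/L, all from E13.5 embryos and grown to passage 4 without any treatment named. The L allele is a germline alteration of Rb1 known to change the cleft through which the retinoblastoma protein pRb binds proteins with an LXCXE motif. No strain is given in the sources used here.

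Genes that lie next to a targeted locus are inherited together with it, so a comparison of mutant with wild-type cultures also compares the DNA on each side of the mutation. pRb itself acts at promoters, where it restrains E2F transcription factors and binds chromatin proteins, and its loss is the founding lesion of retinoblastoma. The neighbourhood has a place in that history: ESD, which encodes esterase D, was an early protein marker for the inheritance of RB1 in families. Whether a difference in a neighbour goes with the altered pRb or with linked DNA cannot be told apart in this design, since each group holds 1 genotype.

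In the order of the RefSeq gene table (assembly GRCm38.p6), Rb1 and its 7 neighbours run Cysltr2, Rcbtb2, Rb1, Lpar6, Itm2b, Med4, Sucla2 and Esd. Htr2a, which is not among the 7, lies between Sucla2 and Esd. Lpar6 lies within Rb1, in one of its introns and on the opposite strand. All 7 neighbours had an entry in the RefSeq promoter table. The 250 bases before the annotated start (GRCm38.p6, 5′ to 3′ on the strand of the gene) are given for Med4, for Esd, of whose 2 clusters 1 passed the test, and for Lpar6, which starts inside Rb1. Capitals mark CpG dinucleotides, the sites of DNA methylation.

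Med4 (chr14:73509799-73510048, plus strand): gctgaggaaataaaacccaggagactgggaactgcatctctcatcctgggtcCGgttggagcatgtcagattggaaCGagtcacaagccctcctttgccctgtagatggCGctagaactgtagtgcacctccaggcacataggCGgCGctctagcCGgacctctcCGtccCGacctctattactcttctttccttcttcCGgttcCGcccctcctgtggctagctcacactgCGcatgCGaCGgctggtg
Esd (chr14:74732047-74732296, plus strand): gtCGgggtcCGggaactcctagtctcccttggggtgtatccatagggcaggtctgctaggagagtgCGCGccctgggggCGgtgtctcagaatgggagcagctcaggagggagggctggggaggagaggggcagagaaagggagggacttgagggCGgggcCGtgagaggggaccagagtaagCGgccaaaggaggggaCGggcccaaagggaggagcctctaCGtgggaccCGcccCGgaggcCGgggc
Lpar6 (chr14:73237641-73237890, plus strand): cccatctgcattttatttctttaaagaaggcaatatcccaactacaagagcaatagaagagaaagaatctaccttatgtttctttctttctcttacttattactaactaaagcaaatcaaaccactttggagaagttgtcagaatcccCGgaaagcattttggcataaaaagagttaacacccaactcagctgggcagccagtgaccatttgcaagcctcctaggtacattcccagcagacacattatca

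Med4 and Esd had 13 CpGs each in this window and a GC content of 57.6% and 68.4%, against medians of 6 CpGs and 52.4% over 32851 promoters. Lpar6 had 1 CpG and 39.2% GC. Of the other neighbours that did not pass the test, Itm2b had 14 CpGs and 68.8% GC, and Sucla2 had 18 and 61.2%. Rcbtb2 had 6 and 1 CpGs in its 2 promoters, and Cysltr2 had 2. The 75th percentile over all promoters was 16 CpGs. Itm2b and Sucla2 thus had more CpGs than Med4 and Esd, while Rcbtb2, Lpar6 and Cysltr2, which was below the detection limit, had fewer. A link of CpG content with the calls was not tested. Both strands were searched for the E2F letters TTTCCCGC, TTTCGCGC, TTTGCCGC or TTTGGCGC (in 1.86% of all promoters), for the core of the interferon-stimulated response element, written GAAA, any 2 bases and GAAA (2.98%), and for TTTGAA, the cell cycle homology region (16.0%). None of these letters stood in the 3 windows printed. Of the other members, only 1 of the 2 promoters listed for Rcbtb2 held any of them, TTTGAA on the reverse strand. The series concerns divergently paired genes, and by this table no member had the start of another listed gene head to head within 1000 bp; Itm2b and Med4 face away from each other, with starts 124760 bases apart.

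Genes entered the test if their 6 arrays averaged over log2 5.081, a detection limit taken from olfactory and vomeronasal receptor genes. Of 15462 tested genes, 1883 (12.2%) differed between the genotypes by limma at an adjusted p under 0.05, 1098 higher (7.1%) and 785 lower (5.08%) in Rb1L/L. Values are log2, and differences are Rb1L/L minus Rb1+/+; over all tested genes their median was -0.021. Xist lay between 11.44 and 11.61 on the 4 arrays numbered 2 and 3 and at 5.13 and 4.79 on those numbered 1, where the Y-linked Eif2s3y was high (8.36 and 8.47), so that each genotype held 1 culture of male and 2 of female type. All 10 fibroblast markers examined were above the detection limit, at means from 8.84 to 13.43, and Col3a1 fell. Of 10 macrophage markers 3 rose (Adgre1, Cd14 and C1qa) and Cx3cr1 fell; their summed linear level ranged from 2174 to 3587 in Rb1+/+ and from 2526 to 3744 in Rb1L/L. Of 6 endothelial markers Kdr rose and Pecam1 was below the detection limit (sums 499 to 774 and 558 to 717), and of 5 epithelial markers none passed and Epcam was below it (578 to 675 and 605 to 687). Their part in the results was not tested. In bulk RNA, fewer cells of a type and less RNA per cell cannot be told apart.

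Of the 7 neighbours, 6 passed the detection limit. By their brightest clusters Med4 rose and Esd fell in Rb1L/L cultures, and the other 4 did not pass the test; 2 of 6 thus stand beside the 12.2% of all tested genes that were called. With the replicate number as a block the same 2 passed, beside 14.4% of all tested genes (7.99% higher and 6.45% lower). The groups did not overlap for 3 of the 6, Rcbtb2 being the third, against 34.5% of all tested genes (16.2% with Rb1L/L higher and 18.3% with it lower). Rb1 itself had a difference of 0.11 with a 95% interval from -0.12 to 0.33 (limma adjusted p = 0.519).

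**Figure D1:**
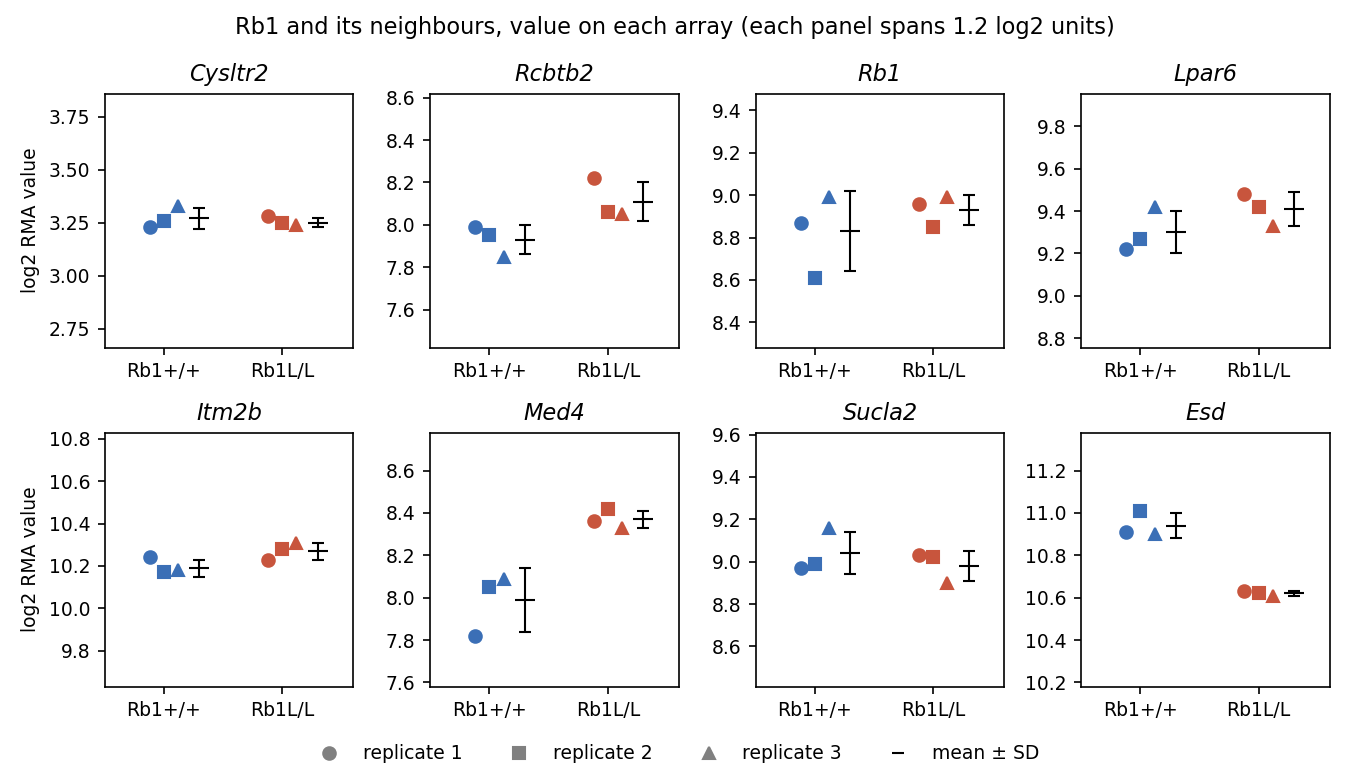
Log2 value on each array for Rb1 and its 7 neighbours, in gene order; symbols are the 3 cultures of each genotype by replicate number, and bars are mean ± SD. All Rb1L/L arrays lie above all Rb1+/+ arrays for Med4 and Rcbtb2 and below them for Esd; the other 5 genes overlap.

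Med4 encodes a subunit of the middle module of Mediator, the complex that passes signals from transcription factors to RNA polymerase II. Its values were 7.82, 8.05 and 8.09 in Rb1+/+ replicates 1, 2 and 3 and 8.36, 8.42 and 8.33 in Rb1L/L. Every Rb1L/L culture was above every Rb1+/+ culture, with replicate 1 of the wild type the lowest. The mean rose from 7.99 ± 0.15 to 8.37 ± 0.04 (SD, n = 3), 1.31-fold (95% interval 1.15 to 1.48), or 0.38 ± 0.08 on the log2 scale (SE; limma adjusted p = 0.0215). By replicate number the differences were 0.55, 0.36 and 0.25. The call was lost when Rb1L/L replicate 1 or 2 was left out (adjusted p = 0.0683 and 0.0748) and when both arrays of any number were (adjusted p = 0.0673 to 0.129), while the difference stayed between 0.30 and 0.45.

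A second cluster carries the symbol Med4 and lists the same transcripts. Of the 10 named clusters numbered nearest to it, 9 belong to genes of the X chromosome, whereas those around the brighter cluster all belong to chromosome 14. It stood at 7.14, 6.91 and 7.09 in Rb1+/+ and at 7.62, 7.54 and 7.63 in Rb1L/L. The groups did not overlap here either, and the 2 cultures of male type were not set apart from the others of their genotype. The difference was 0.55 ± 0.07 (SE; limma adjusted p = 0.00499), so that both clusters carrying the symbol Med4 passed. Whether the second cluster reports the Med4 locus beside Rb1 could not be checked here.

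Esd encodes esterase D, also known as S-formylglutathione hydrolase, which completes the glutathione-dependent removal of formaldehyde. It measured 10.91, 11.01 and 10.90 in Rb1+/+ and 10.63, 10.62 and 10.61 in Rb1L/L. The 3 mutant cultures lay within 0.02 of each other, below all wild-type cultures. The mean fell from 10.94 ± 0.06 to 10.62 ± 0.01 (SD, n = 3), 1.25-fold lower, a log2 difference of -0.32 ± 0.06 (SE; 95% interval -0.45 to -0.19; limma adjusted p = 0.0129). By replicate number the differences were -0.29, -0.39 and -0.29. The call was lost when Rb1L/L replicate 1 was left out (adjusted p = 0.050) and when both arrays of any number were (adjusted p = 0.0669 to 0.115), while the difference stayed between -0.34 and -0.29.

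The fall of Esd held for 1 of its 2 clusters. The second lists the same transcripts and is numbered among clusters of chromosome 14, but the locus it reports could not be checked here. This cluster stood at 10.71, 10.77 and 10.67 in Rb1+/+ and at 10.68, 10.51 and 10.67 in Rb1L/L. The groups overlapped, and the difference was -0.10 ± 0.07 (SE; 95% interval -0.25 to 0.06; limma adjusted p = 0.399). With the mean of both clusters in place of the brighter one, Esd had a difference of -0.21 and missed the threshold (adjusted p = 0.0547). The brighter cluster exceeded the second by 0.20, 0.24 and 0.23 on the wild-type arrays and by -0.06, 0.11 and -0.06 on the mutant ones, groups that did not overlap (exact permutation p = 0.1, two-sided, the smallest that 3 against 3 arrays can give). For Med4 the same gap was 0.68, 1.14 and 1.00 against 0.74, 0.88 and 0.71, and the groups overlapped (exact permutation p = 0.4, two-sided).

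**Figure D2:**
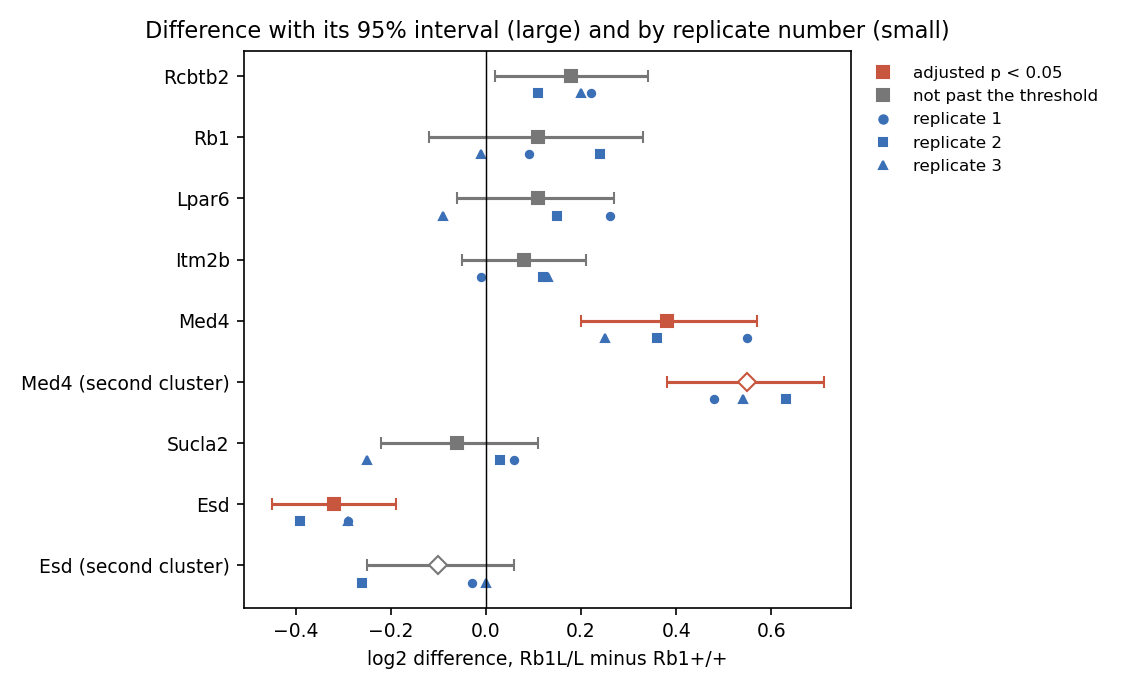
Log2 difference, Rb1L/L minus Rb1+/+, with its 95% interval for Rb1 and the 6 tested neighbours (large symbols, open for second clusters) and for each replicate number (small symbols). Both clusters carrying the symbol Med4 lie above 0. Of the 2 that carry Esd, the interval of the second crosses 0. The loci that the second clusters report could not be checked.

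Rcbtb2, whose product carries RCC1 repeats and a BTB domain, is the nearest tested gene on the other side of Rb1. Its values were 7.99, 7.95 and 7.85 in Rb1+/+ and 8.22, 8.06 and 8.05 in Rb1L/L. The groups did not overlap, by a margin of 0.05 between the highest wild-type and the lowest mutant culture. The difference was 0.18 ± 0.07 (SE; 95% interval 0.02 to 0.34), positive for all 3 replicate numbers, at an unadjusted p of 0.0346 and a limma adjusted p of 0.138.

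Lpar6, inside Rb1, encodes a receptor for lysophosphatidic acid (LPA) that is coupled to G proteins; loss of the human gene causes sparse, woolly hair. It measured 9.22, 9.27 and 9.42 in Rb1+/+ and 9.48, 9.42 and 9.33 in Rb1L/L, and the groups overlapped. The difference was 0.11 ± 0.07 (SE; 95% interval -0.06 to 0.27; limma adjusted p = 0.382), positive for replicates 1 and 2 (0.26 and 0.15) and -0.09 for replicate 3. As a fold, the interval ran from 0.958 to 1.21.

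Itm2b encodes BRI2, a membrane protein cut by furin, and is mutated in familial British and Danish dementia. It was at 10.24, 10.17 and 10.18 in Rb1+/+ and at 10.23, 10.28 and 10.31 in Rb1L/L, with a spread of 0.04 (SD, n = 3) in either group. The difference was 0.08 ± 0.06 (SE; 95% interval -0.05 to 0.21; limma adjusted p = 0.382). The differences by replicate number were -0.01, 0.12 and 0.13.

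Sucla2 encodes the ATP-forming beta subunit of succinyl-CoA synthetase in the tricarboxylic acid cycle. Its values were 8.97, 8.99 and 9.16 in Rb1+/+ and 9.03, 9.02 and 8.90 in Rb1L/L. Replicate 3 was the highest wild-type and the lowest mutant culture, and the groups overlapped. The difference was -0.06 ± 0.07 (SE; 95% interval -0.22 to 0.11; limma adjusted p = 0.644), and it was 0.00 without Rb1+/+ replicate 3.

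Cysltr2 encodes a receptor for the cysteinyl leukotrienes and is known from eosinophils and endothelium. It was below the detection limit on every array, at 3.23, 3.26 and 3.33 in Rb1+/+ and at 3.28, 3.25 and 3.24 in Rb1L/L. At this level the probes give no measure of the transcript, and a difference of -0.02 (exact permutation p = 0.7, two-sided) carries no information on a change.

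The patterns of the members over the 6 arrays were set beside those of other tested genes. This is a description in which the genotype split and the shared arrays enter. Left out by symbol were most predicted genes and small RNAs, and any symbol starting with A, D or E and a digit. That rule also removed the E2f genes. Med4 ran most like Stx4a (Pearson r = 0.997) and Aurka (0.996), with 783 genes at r over 0.9. Esd ran most like Pvalb and Col5a1 (both 0.994), with 525 such genes. For the other tested neighbours the likest pair was Spsb2 (0.99) and Tpm3 (0.981) for Rcbtb2, Otulin (0.976) and Tbc1d25 (0.972) for Lpar6, S100a13 and Acy1 (both 0.989) for Itm2b, and Tex35 (0.986) and Rexo4 (0.983) for Sucla2. The numbers of genes at r over 0.9 were 290, 82, 151 and 92 in that order.

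The wider neighbourhood was taken by gene order, as the 25 tested genes on each side of Rb1. Of these 50 genes 9 passed (18.0%, against 12.2% of all tested genes), with a median difference of 0.019. For 49 of them both group means were over the detection limit, and 4 of those rose and 4 fell (16.3%, against 12.2% of the 15341 such genes in all). Among the 10 nearest on each side, Med4 and Esd were the 2 that passed. The 14 that are not members had 0 calls by limma. Of the 14, 2 had an unadjusted p under 0.05 (Dok2 and Rubcnl, the latter named after its value was seen). Over all 15462 tested genes, 4444 had one. The nearest genes beyond Rcbtb2 were Fndc3a (0.01 ± 0.12 SE, adjusted p = 0.973), Gfra2 (0.21 ± 0.10, adjusted p = 0.216) and Dok2 (0.24 ± 0.08, adjusted p = 0.0795). On the other side Htr2a, at position 5 between Sucla2 and Esd, had a difference of 0.03 ± 0.10 (SE; limma adjusted p = 0.878). It was named for its place after its value was seen.

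Farther out on the side of Rcbtb2, 6 genes passed, at positions 13 to 21 in the order. Pdlim2, which encodes a PDZ and LIM domain protein, rose by 0.40 ± 0.07 (SE; limma adjusted p = 0.0106), from 8.09, 8.13 and 7.97 to 8.45, 8.52 and 8.41. Sorbs3, for the adhesion protein vinexin, rose by 0.26 (adjusted p = 0.0282), and a predicted gene by 0.39 (adjusted p = 0.0148). Bmp1, the protease that trims procollagens, had a difference of -0.40 ± 0.07 (SE; adjusted p = 0.0116), from 11.75, 11.57 and 11.68 to 11.20, 11.29 and 11.31. The zinc transporter gene Slc39a14 (-0.27, adjusted p = 0.0213) and the calcineurin gene Ppp3cc (-0.22, adjusted p = 0.0468) also fell; Ppp3cc did not pass with the replicate block (adjusted p = 0.0665) or after median centring (adjusted p = 0.0693). On the side of Esd the gene at position 18, Kctd4, averaged 5.01 in Rb1+/+, under the detection limit, and 5.41 in Rb1L/L. It entered the test through its Rb1L/L values, so its call (limma adjusted p = 0.0376) goes with no measured size. Gtf2f2, for a subunit of the general transcription factor TFIIF, had a difference of 0.26 and passed only with the replicate block (adjusted p = 0.0552, or 0.0328 with the block). With 1 array left out in turn, Pdlim2 and Bmp1 passed in 6 of 6 fits, the predicted gene in 4, Slc39a14 in 2, Kctd4 in 1, and Sorbs3 and Ppp3cc in 0. Both rises and falls thus occurred along the order. The count for the 25 genes a side was 2 without Rb1L/L replicate 1, when 4.06% of all tested genes passed. It was 3 without Rb1L/L replicate 2, when 4.02% of all tested genes did.

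**Figure D3:**
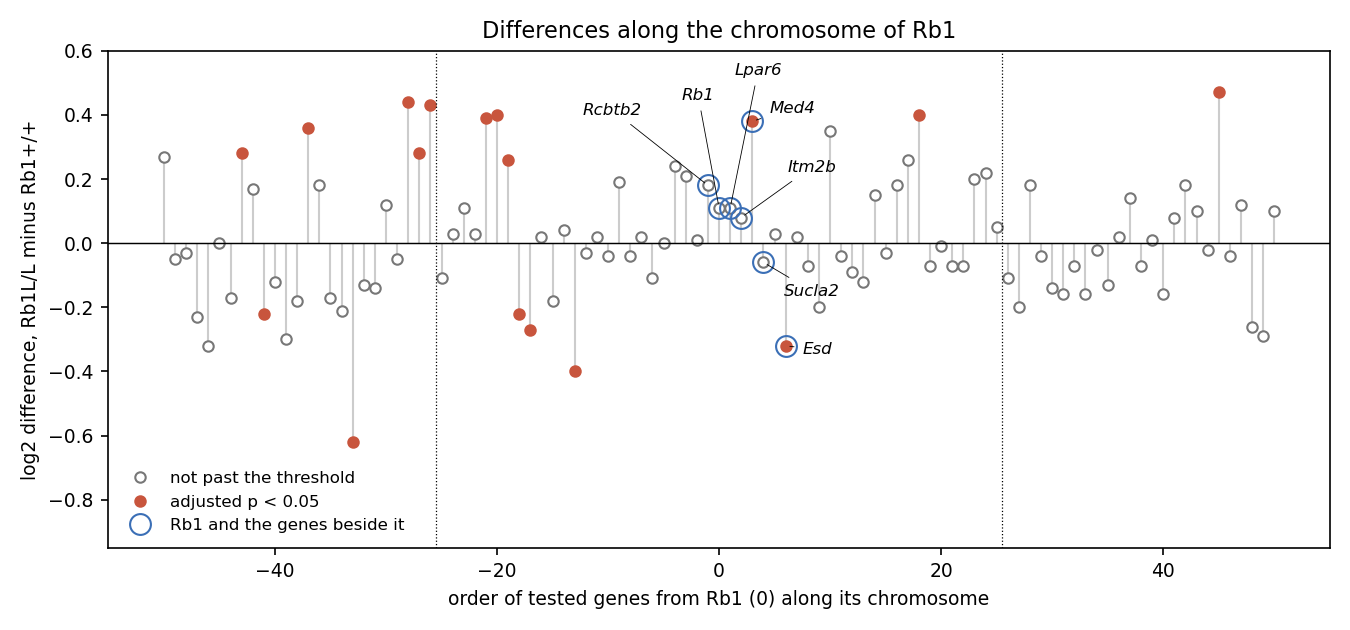
Log2 difference, Rb1L/L minus Rb1+/+, of the 50 tested genes on each side of Rb1 (position 0) against their order on the chromosome; filled points passed an adjusted p of 0.05, circles mark Rb1 and its tested neighbours, and dotted lines bound the 25 genes a side. The genes from position -12 to 2 are all open points, with Med4 at 3 and Esd at 6 the nearest that passed.

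For each neighbour the genes it works with were listed, 95 genes in 7 lists, of which 88 were tested and 11 (12.5%) passed, near the 12.2% of all tested genes. Members named below that did not pass were picked for their role after their values were seen. Of the 32 Mediator partners of Med4, all tested, 4 rose and 0 fell, with a median difference of 0.023; these 12.5% are close to the share of all tested genes, as are the 34.4% of partners whose groups did not overlap, against 34.5%. Med31 rose by 0.63 ± 0.10 (SE; limma adjusted p = 0.00844), from 7.88, 7.98 and 7.77 to 8.58, 8.65 and 8.31. Med6 rose by 0.37 (adjusted p = 0.0278), Med22 by 0.31 (adjusted p = 0.0356) and Med7, the fourth and named after its value was seen, by 0.28 (adjusted p = 0.0412). After quantile normalization Med22 (adjusted p = 0.0536) and Med7 (adjusted p = 0.0572) missed the threshold. Med31 and Med7 belong to the middle module with Med4, Med6 and Med22 to the head. Only subunits that passed are sorted here, and a change of a module as a whole was not tested.

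Of 16 tested tricarboxylic acid cycle genes other than Sucla2, 4 rose and 0 fell, with a median of 0.106. These 4 of 16 are a larger share than the 12.2% of all tested genes. The groups did not overlap for 10 of the 16, against 34.5% of all tested genes. Whether calls gather in this list was not tested. With the replicate block 4 rose and 1 fell, also a larger share than the 14.4% of all tested genes called with it. The 1 that fell was Sdhc, for a subunit of complex II, named for this change of call after its value was seen. The isocitrate dehydrogenase genes Idh2 (0.60 ± 0.06 SE, limma adjusted p = 0.00295) and Idh3a (0.44 ± 0.07, adjusted p = 0.00733) led, with the complex II subunit Sdhd (0.37 ± 0.06, adjusted p = 0.00842). Fumarase, Fh1 (0.29, adjusted p = 0.0476, named after its value was seen), missed the threshold after quantile normalization (adjusted p = 0.0572). Sdhc measured 11.22, 11.17 and 11.57 in Rb1+/+ and 10.84, 10.74 and 11.13 in Rb1L/L. The groups did not overlap, and replicate 3 was the highest of both. The difference was -0.42 ± 0.13 (SE), or -0.39, -0.43 and -0.44 by replicate number, with a limma adjusted p of 0.0717 without the block and 0.0076 with it. Sdhc and Sdhd thus differed in opposite directions. The direct partners of Sucla2 in the synthetase, Suclg1 (0.15 ± 0.06) and Suclg2 (-0.10 ± 0.07), did not pass (adjusted p = 0.17 and 0.393).

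Of 12 tested genes of the BRI family and its processing, 2 fell and 0 rose (16.7% called, against 12.2% of all tested genes), with a median of -0.093. Bace1, which encodes the beta-secretase, had a difference of -0.41 ± 0.07 (SE; limma adjusted p = 0.0142), and Itm2c, a paralog of Itm2b, one of -0.31 ± 0.08 (adjusted p = 0.0395, or 0.0519 after median centring). The other paralog Itm2a (0.04 ± 0.08) and Furin (-0.20 ± 0.06, adjusted p = 0.0693) did not pass. Rcc1, the nucleotide exchange factor of Ran, rose by 0.31 (adjusted p = 0.0485, or 0.0756 after quantile normalization) as the 1 call among the 9 partners of Rcbtb2 (11.1%), whose paralog Rcbtb1 had a difference of 0.11 ± 0.06 (adjusted p = 0.261). In the same list Rbx1, for a RING subunit of cullin ligases, had a difference of 0.25 and passed only with the replicate block (adjusted p = 0.0687, or 0.0395 with the block).

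With 1 array left out in turn, Med31, Idh2, Idh3a and Sdhd passed in 6 of 6 fits, Bace1 in 5, Med6 and Fh1 in 2, and Med22, Med7, Itm2c and Rcc1 in 1. With no detection limit, and so more genes tested, Med7, Fh1 and Rcc1 missed the threshold (adjusted p = 0.0502, 0.0578 and 0.0582).

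The remaining 3 lists held no call by limma. Over all 15462 tested genes, 4444 had an unadjusted p under 0.05. Of the 7 tested genes of LPA receptors and metabolism, 0 had an unadjusted p under 0.05, with Lpar1 at 0.07 ± 0.07 and Lpar4 at 0.09 ± 0.06 (SE). Of the 4 tested partners of Esd, 2 had an unadjusted p under 0.05, with differences of -0.17 and 0.21, and 0 passed. Adh5, the dehydrogenase that acts just before Esd on formaldehyde, had a difference of -0.09 ± 0.07 (SE, limma adjusted p = 0.488). Of the 8 tested leukotriene genes, 1 had an unadjusted p under 0.05 and 0 passed, and the other leukotriene receptor gene, Cysltr1, was below the detection limit like Cysltr2.

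**Figure D4:**
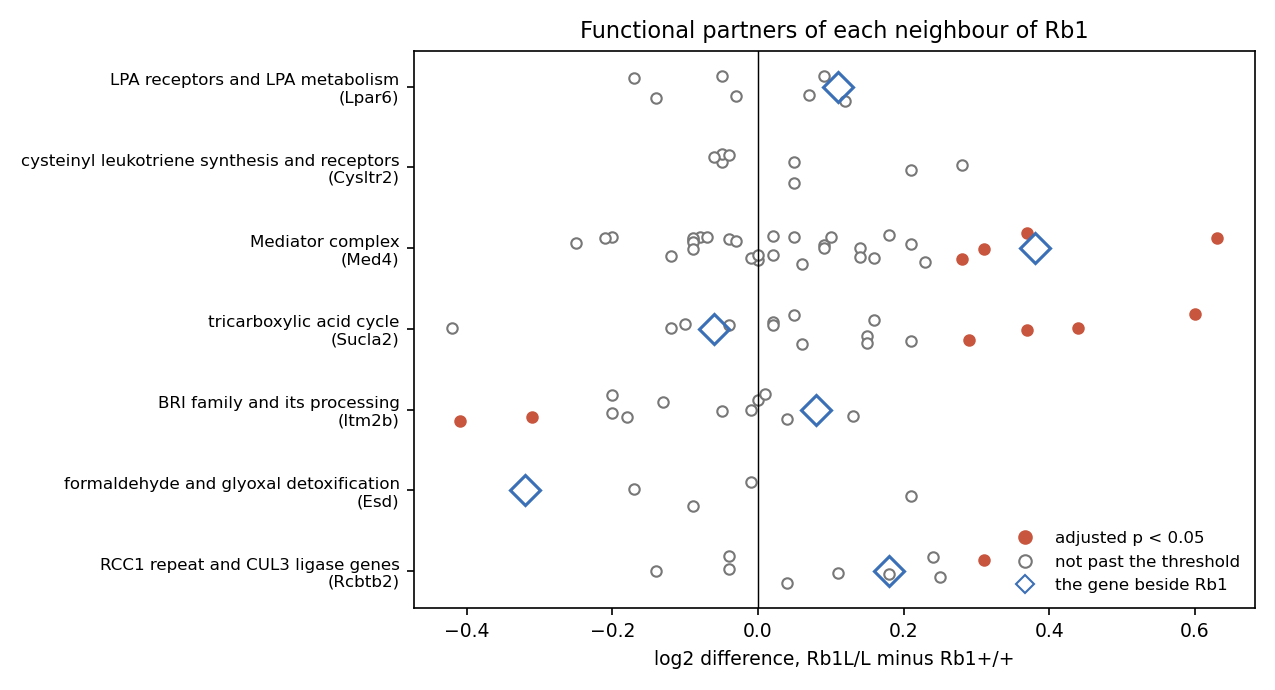
Log2 difference, Rb1L/L minus Rb1+/+, of the 88 tested partner genes by list (circles, filled where the adjusted p was under 0.05) and of the neighbour of Rb1 that heads each list (diamonds; Cysltr2 was not tested and has none). The 4 filled circles of the Mediator list lie from 0.28 to 0.63, around Med4 at 0.38. By its brighter cluster Esd lies below its 4 partners. Second clusters are not drawn, and that of Esd had a difference of -0.10.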

How the data were processed

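RNA of 6 MEF cultures was measured on 1 array each. The authors deposited log2 values per transcript cluster, made with RMA, which subtracts a background, equalises the arrays and summarises probes, so a change shared by most genes is lost and low folds are compressed; RMA and Partek are named in the submitters' processing notes, with no version or setting stated there. An array has no read depth, and the number of arrays limits the precision. Array medians ran from 6.393 to 6.449.

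Of 35556 clusters, 21789 carried 1 gene symbol, 1621 several and 12146 none in the platform annotation; 21698 of the first were found in the reference table. No cluster with several symbols held a member. The detection limit was the 90th percentile of 1194 receptor genes. The genotypes were set against each other in limma 3.58.1 (R 4.3.3; lmFit, then eBayes, without a block), and p-values were adjusted by Benjamini-Hochberg across every tested gene, with 0.05 as threshold. The p-values measure the spread between these cultures. The procedure was tested on simulated data. The replicate numbers pair the samples. The design text speaks of MEF pairs, and arrays that share a number deviated together from their genotype's means, with correlations of 0.301, 0.243 and 0.298. The main fit leaves this pairing out, and the fit with the replicate block includes it. Alternatives covered the block, scaling, the detection limit, variance moderation, array weights, the cluster rule, the window and left-out arrays. No source used here gives the build of the annotation, so the reference served for names and gene order.

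Named were the members, Rb1, the 4 nearest tested genes a side, up to 10 of the 25 a side past the threshold, up to 3 past it per partner list and the 2 genes most like each tested member. The members and lists were chosen with earlier results of these data known.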

Additional observations from a re-analysis of the deposited data

How the results depend on the processing

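Every tested neighbour of Rb1 kept its direction and its side of the threshold with the replicate block, median centring, quantile normalization, either other detection limit, trended variances and array weights; with the block, 2232 genes passed in all, Med4 had adjusted p = 0.0193 and Esd 0.018, and the count of 2 members was the same. Among the 25 genes a side the block changed 2 calls (Ppp3cc lost, Gtf2f2 gained), and among the partners 2 (Sdhc and Rbx1 gained). With the mean of clusters Esd had a difference of -0.21 and 1 member passed; with the second cluster of Med4 and Esd, an alternative added after the clusters were seen, Esd had -0.10 and again 1 member passed.

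Without 1 array the differences ranged from 0.30 to 0.44 for Med4, from -0.34 to -0.29 for Esd and from -0.09 to 0.00 for Sucla2. The members called ranged from 0 to 2, all tested genes called from 622 to 1441, genes called among the 25 a side from 2 to 7 and partner genes called from 4 to 12. Without both arrays numbered 1, 2 and 3, Med4 had 0.30, 0.40 and 0.45 and Esd -0.34, -0.29 and -0.34; 0 members passed each time by limma, while 92, 467 and 460 genes did in all, with 0, 1 and 0 among the 25 a side and 0, 3 and 3 among the partners. Sucla2 changed sign to 0.04 without both arrays numbered 3. Fewer arrays leave fewer degrees of freedom; other causes were not tested. The partner genes called numbered 7 after quantile normalization, 17 with the stricter detection limit and 17 with trended variances, against 11 in the main fit. Over all tested genes the calls in these 3 settings numbered 1920, 2174 and 2197, against 1883 in the main fit. The stricter limit left 11296 genes tested in place of 15462. The number of partners still tested under it is not given here. With 10 genes a side 2 passed (10.0%), and with 50 a side 17 (17.0%), against 12.2% of all tested genes.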

Other observations

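Of the 100 tested genes up to 50 a side of Rb1, 17 passed the test (17.0%, against 12.2% of all tested genes). Of these, 8 lay beyond the 25 genes a side, 6 higher and 2 lower. Stc1, for the secreted glycoprotein stanniocalcin, had the largest difference among them, -0.62 ± 0.14 (SE; limma adjusted p = 0.0295), and Diaph3, for a formin that builds actin filaments, rose by 0.47 ± 0.11 (adjusted p = 0.0282). Both were picked after their values were seen, and in 3 of the 6 fits with 1 array left out each still passed.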
